A study of Mus musculus with 4 samples.

Results

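The genes described are 9 members of the Nodal pathway, namely Nodal, Lefty1, Lefty2, Tdgf1, Acvr2b, Smad2, Smad3, Smad7 and Skil, out of 46078 rows with a mouse gene identifier. They were chosen by name, with measured values of these cells already in view, since Lefty2 had been seen mostly in small cells in N2B27. The values of Lefty2 in N2B27 small, and every contrast that holds that group, are therefore a description for Lefty2. Wild-type mouse embryonic stem (ES) cells, of the E14 line in the study's methods, were grown in 2i, a medium that holds them naive by inhibiting MEK and GSK3, and which also holds leukaemia inhibitory factor (LIF) in the study's methods. They were gated for small size by their forward and side scatter, or left ungated. Both populations were then kept on laminin for 6 h, either in 2i again or in the differentiation medium N2B27, which lacks the inhibitors and LIF, before single cells were sequenced by Smart-seq2. This gave 4 groups of 24 cells, small and ungated ones in 2i and small and ungated ones in N2B27, and each group is 1 sample, so no test between groups was possible and no p-value is given. The small gate was set by the submitters for cells leaving mitosis or in G1, and was checked by them in other cells that carry reporters of cell cycle phase. All cells in 2i were on 1 plate and all cells in N2B27 on the other, each in its own sequencing lane, so medium and plate cannot be told apart.

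Nodal is a secreted ligand of the TGF-beta family that binds activin receptors together with the coreceptor Tdgf1, also called Cripto. The receptors phosphorylate Smad2 and Smad3, which enter the nucleus with Smad4 and act with partners such as Foxh1. Lefty1 and Lefty2 are secreted antagonists that are themselves induced by the pathway, so they are used as readouts of Nodal signalling, and Smad7 and Skil are inhibitors inside the cell that the pathway also induces. In ES cells the pathway is active in culture without added ligand, and it is known for its part in the passage from naive to primed pluripotency.

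After a filter on cells, 12 small and 22 ungated cells remained in 2i, and 20 small and 21 ungated cells in N2B27, 75 of 96 in all, with between 1364155 and 4844170 reads on genes per cell. All 7 ES cell markers listed reached 10 or more normalized counts in some cells of each group. Zfp42 (Rex1) was at that level in 74 of 75 cells, Esrrb in 55 and Sox2 in 43. The 6 markers of 2-cell-like cells reached that level in no cell, and of 4 markers of feeder fibroblasts, Col1a1, Col1a2 and Thy1 reached it in no cell, while Vim, which is not particular to fibroblasts, reached it in 48 of 75. Of 7 primitive endoderm markers, 4 reached that level in some cell of 2i ungated, 2 in N2B27 small, 3 in N2B27 ungated and 0 in 2i small, with a summed level of 0 in the median cell of each group and of 533 at most. Small cells had a higher median share of ERCC spike-in reads than ungated cells (3.47% against 1.28% in 2i, 2.45% against 1.14% in N2B27) and fewer genes detected (medians of 7603 against 9515.5 and 7462.5 against 8200). In 2i small, 1 cell had 15712 genes detected and another had 40.9% spike-in reads, and both stand apart from the rest. By phase, 6, 5 and 1 of the 2i small cells were called G1, S and G2M, against 0, 7 and 15 in 2i ungated, and 6, 11 and 3 in N2B27 small against 2, 4 and 15 in N2B27 ungated. Phase and gate thus moved together, and their parts in the values below cannot be told apart. The plates carried the same 48 pairs of index sequences, and on each plate the gates lay in different rows of the i5 index.

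Lefty1 and Lefty2 are neighbouring genes on the plus strand of chromosome 1 in GRCm38. Lefty2 (ENSMUSG00000066652) runs from 180893108 to 180899103 and Lefty1 (ENSMUSG00000038793) from 180935022 to 180938400, which leaves 35918 bases between them. Their transcripts were identical at 86.1% of 1505 aligned bases. Of the 50-base words, 17.9% of those of Lefty1 and 11.6% of those of Lefty2 occur in another gene, so reads from the shared stretches could be assigned to either. How such reads were assigned was not tested. The N2B27 small cell with 3589 Lefty2 reads held 1 Lefty1 read, and the one with 1164 Lefty1 reads held 1 Lefty2 read. The stretch in coding exon 1 where the genes differ most is printed because reads from it can be assigned to 1 gene, with the 18 differing bases in capitals (GRCm38, plus strand, chr1:180935143-180935202 in Lefty1 and chr1:180893217-180893276 in Lefty2).
Lefty1: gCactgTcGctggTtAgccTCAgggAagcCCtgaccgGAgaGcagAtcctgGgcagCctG
Lefty2: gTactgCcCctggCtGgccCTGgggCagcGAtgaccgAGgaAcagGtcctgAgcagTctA

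Lefty2 was high in few cells. Values per cell are counts divided by the cell's size factor, called normalized counts here. In N2B27 small, Lefty2 was at 2689, 785 and 738 normalized counts in 3 of 20 cells, from 3589, 1100 and 824 reads, and the next cell was at 3.07. These 3 cells held 99.7% of the group's 5529 Lefty2 reads, and 1 of them alone held 64.9%. In N2B27 ungated, 2 of 21 cells held 1 Lefty2 read each and 0 cells reached 10 normalized counts, a share of 0% (exact 95% interval 0 to 16.1%) against 15% (3.21 to 37.9%) in N2B27 small. Intervals here cover counting error only and say nothing of the spread between samples. The mean was 211 ± 628 (SD over 20 cells) in N2B27 small and 0.0945 ± 0.301 (21 cells) in N2B27 ungated. This is a log2 ratio of 7.60, with a counting interval of 6.07 to 10.97. The interval is that of the reads moved to lie around this ratio, so with 2 reads in N2B27 ungated it is approximate. Without the highest cell of each group the log2 ratio was 6.30.

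Lefty2 was also present in 2i, and there the ungated cells held more of it. In 2i ungated, 5 of 22 cells were at 630, 360, 208, 205 and 132 normalized counts, 22.7% of cells (7.82 to 45.4%), and the median of the group was 0. In 2i small, 2 of 12 cells were at 143 and 10.4, 16.7% (2.09 to 48.4%), and the lower of them is the cell with 15712 genes. The log2 ratio of small to ungated in 2i was -2.36 (-2.56 to -2.17), and -2.20 without the 2 cells that stand apart. With size factors from the spike-ins it was -0.81, within 2-fold, where the median over all genes was 0.77. The cell with 15712 genes has the smallest of those size factors, 0.0413, so they scale up its reads most. By the number of cells at 10 or more, Lefty2 was thus found in 3 of 20, 0 of 21, 2 of 12 and 5 of 22 cells of N2B27 small, N2B27 ungated, 2i small and 2i ungated. The 3 Lefty2-high cells of N2B27 reached higher values than any in 2i. All 5 of the 2i ungated cells lay on the i511 row of the plate and none on the i510 row of the same gate.

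**Figure D1:**
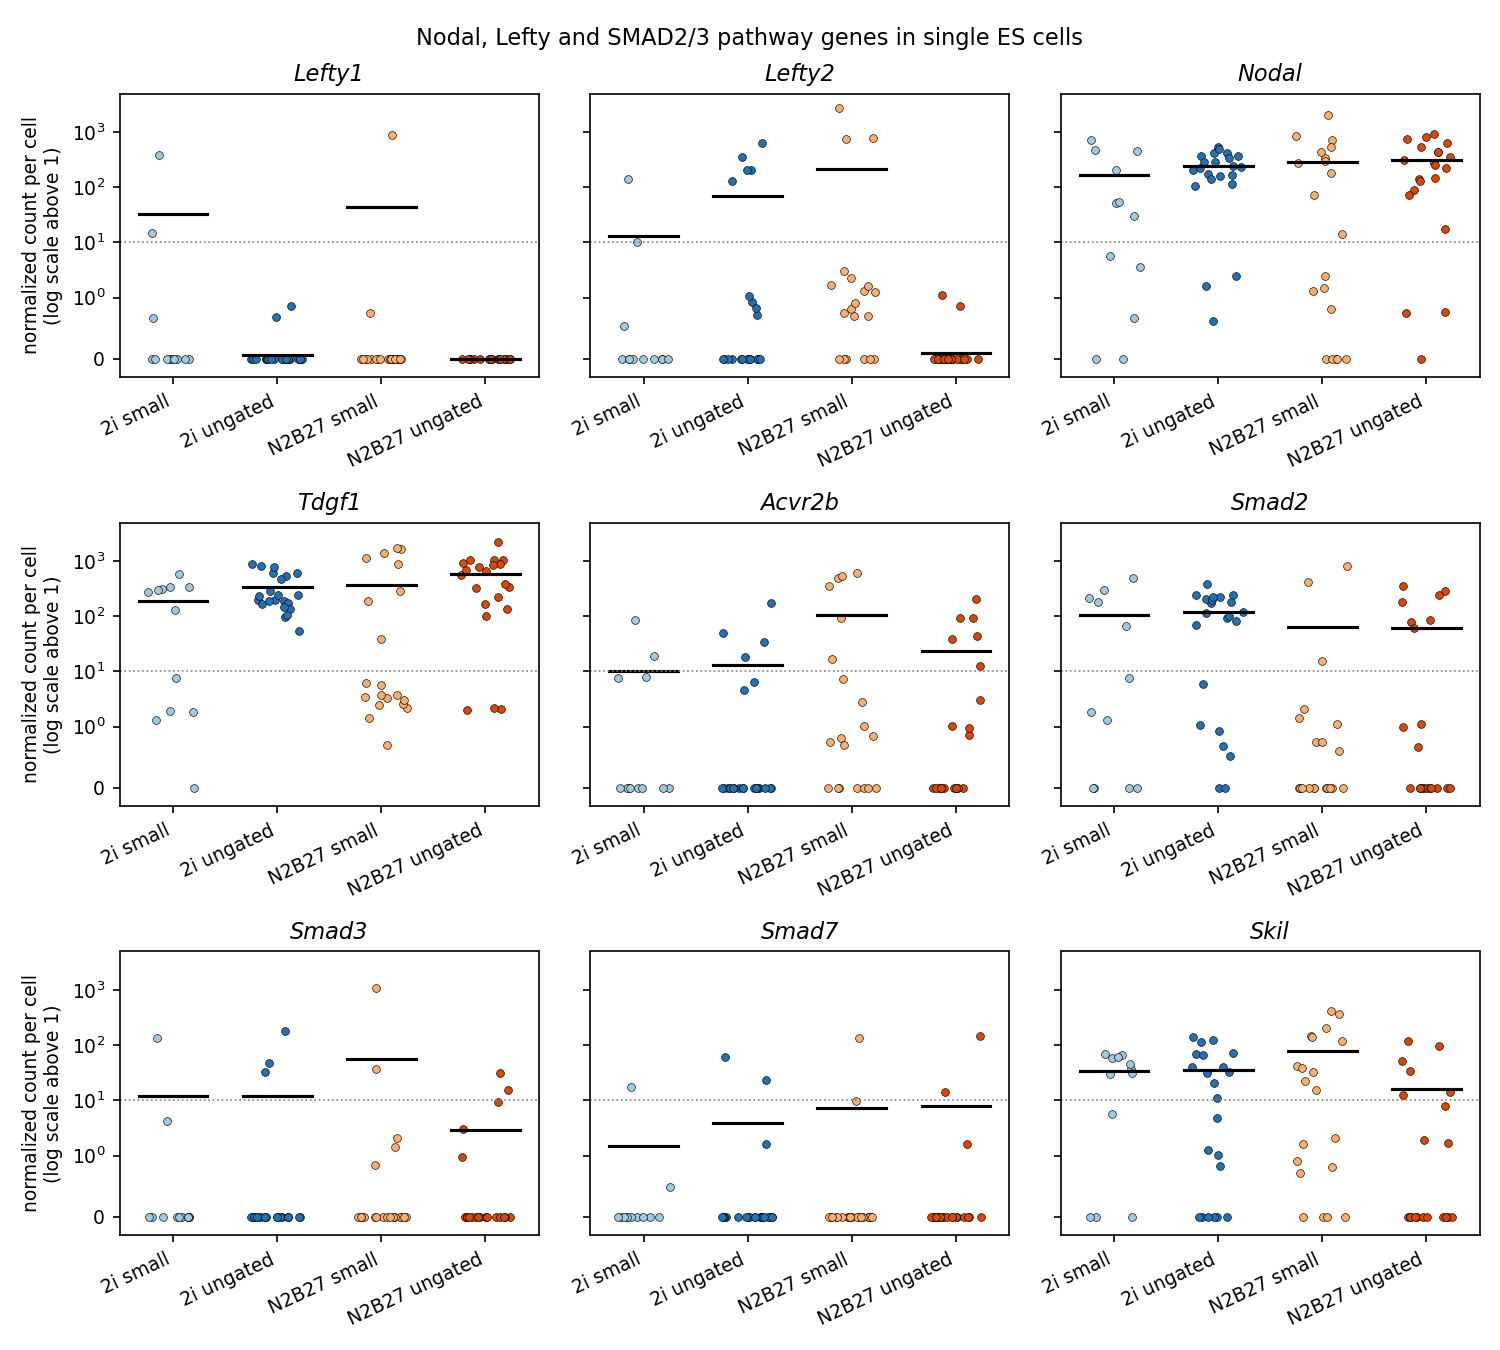
Normalized count of each member gene in each kept cell, on a scale that is linear up to 1 and logarithmic above it, by group of medium and gate. Points are cells, black bars are group means and the dotted line is 10 normalized counts. Lefty2 in N2B27 small shows 3 cells between 738 and 2689 and 11 cells with traces of at most 3.07, while Nodal and Tdgf1 are at 10 or more in most ungated cells.

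The share of N2B27 small cells with Lefty2 depended on the threshold. With 1 read counted, 14 of 20 N2B27 small cells were positive (70%, 45.7 to 88.1%), but 11 of these held 1 to 3 reads. The low reads followed the index rows of the plate. Among the N2B27 wells without high Lefty2, wells left out of other values included, 13 of 21 that shared the i5 index with a high well held a read, 19 reads in all and 3 at most. Of the wells that shared only the i7 index, 2 of 4 held a read, and these are the 2 positive N2B27 ungated cells. Of the wells that shared neither index, 0 of 20 held a read. By row, 9 of 10 other wells held a read on i503, which has 2 of the high wells, against 4 of 11 on i502, which has 1, and 1 of 12 on each of the ungated rows i510 and i511. On the 2i plate, 5 of 17, 3 of 14 and 0 of 10 wells held a read by the same classes.

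Other genes read almost entirely in 1 well showed the same order. On the N2B27 plate, 15 genes had at least 1000 reads in 1 well and at most 1% of that in the second. Scaled to 1000000 reads in the top well, the other wells held a mean of 238 reads per well with the same i5, 104.7 with the same i7 and 8.28 with neither. On the 2i plate, with 6 such genes, these means were 465, 285 and 75.5. Whether reads carried between wells made up the Lefty2 traces was not tested, and cells are counted as positive below from 10 normalized counts. The gates lie on different i5 rows, so a share counted from 1 read differs between gates with the row as well as with the cells.

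**Figure D2:**
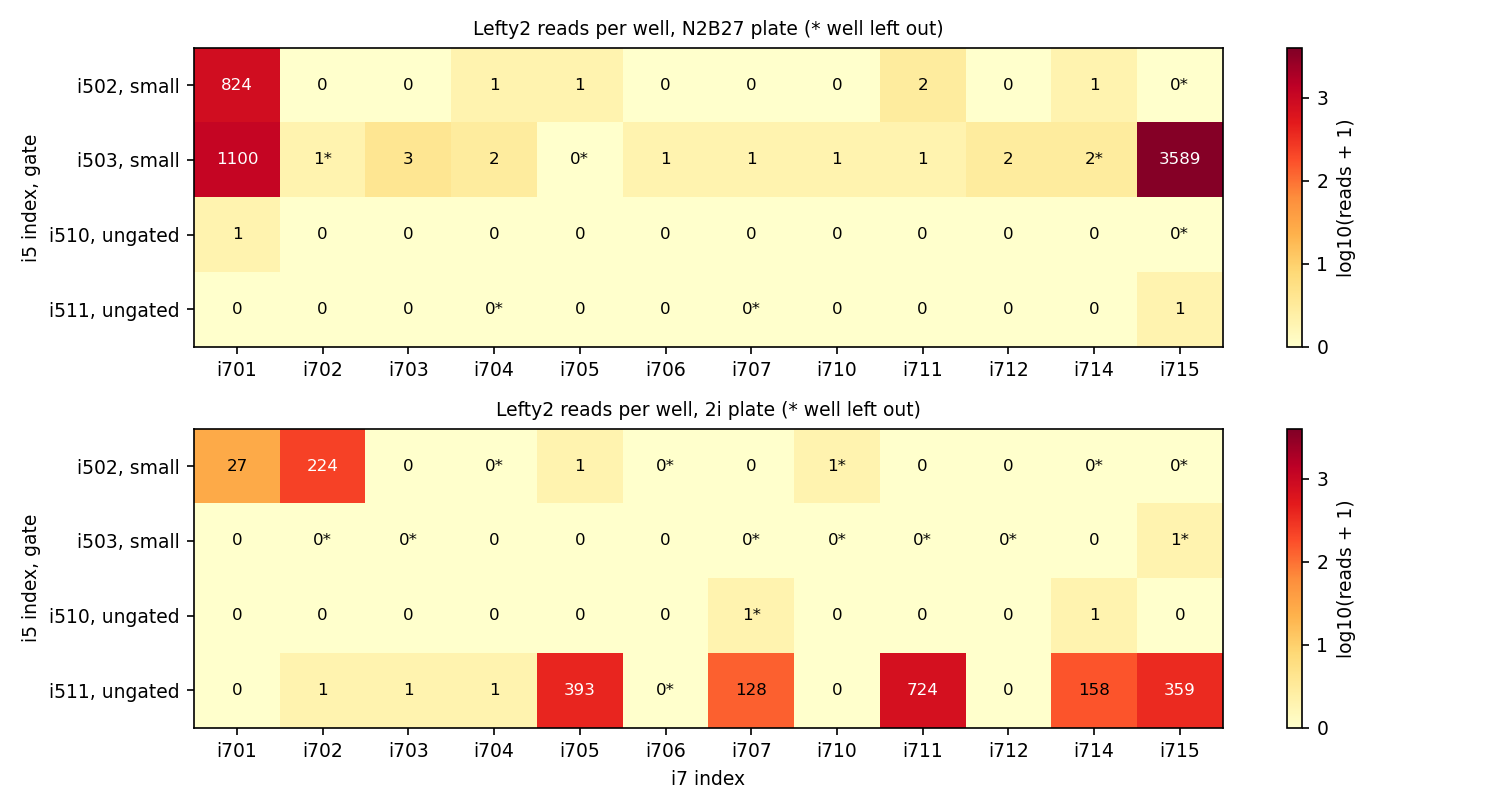
Lefty2 reads in each well of the N2B27 plate (top) and the 2i plate (bottom), with the i5 index and gate as rows, the i7 index as columns and colour for log10(reads + 1). Numbers are reads and a star marks a well that was left out; on the N2B27 plate, traces of 1 to 3 reads fill 9 of 10 other wells of the i503 row, which has 2 high wells, and 1 of 12 wells in each ungated row.

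Lefty1 was rarer than Lefty2 and mostly in other cells. In N2B27 small, 1 of 20 cells was at 874 normalized counts, from 1164 reads, and 1 cell held 1 read. In N2B27 ungated, 0 reads were found in 21 cells. Against a floor of 3 reads over that group, set in its cell with the smallest size factor, the N2B27 small mean was at least 274-fold higher, but this rests on 1 cell, and without the highest cell of each group the log2 ratio on the scale with a pseudocount of 1 fell from 5.48 to 0.06. In 2i small, 2 of 12 cells were at 383 and 15, and in 2i ungated 2 of 22 cells held 1 read each, a log2 ratio of 5.0 (3.46 to 8.37) that was 1.23 without the highest cells. That 1.23 rests on the cell at 15, which is the one with 15712 genes, since the only other 2i small cell with a read was at 0.666. The share at 10 or more was 5% (0.127 to 24.9%) in N2B27 small and 16.7% (2.09 to 48.4%) in 2i small, and 0% in both ungated groups. Lefty1 was thus at 10 or more in 3 of 32 small cells and in 0 of 43 ungated cells, over both media, and 1 of the 3 is the 2i small cell with 15712 genes.

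The wells that shared an index with the Lefty1-high well of N2B27 small carried no Lefty1 traces. On the N2B27 plate, 0 of 11 wells that shared its i5 index and 0 of 3 that shared only its i7 index held a Lefty1 read. The 1 read elsewhere on that plate was in the cell with 3589 Lefty2 reads, and the Lefty1-high cell itself held 1 Lefty2 read.

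The design implied the question whether Lefty1, Nodal and other members are in the same cells as Lefty2, and the values are given for each of the 3 Lefty2-high cells of N2B27 small. The cell at 2689 Lefty2 had 0.749 Lefty1, 1.5 Nodal, 3.0 Tdgf1, 348 Acvr2b, 0.749 Smad2, 36.7 Smad3, 0 Smad7 and 38.2 Skil normalized counts, and was called S. The cell at 785 Lefty2 had 0 Lefty1, 0 Nodal, 2.14 Tdgf1, 501.6 Acvr2b, 821 Smad2, 0 Smad3, 0 Smad7 and 0.714 Skil, and was called G1. The cell at 738 Lefty2 had 0 Lefty1, 0 Nodal, 284 Tdgf1, 0 Acvr2b, 0 Smad2, 0 Smad3, 9.86 Smad7 and 209 Skil, and was called S. Nodal and Lefty1 were thus below 10 in all 3 cells, and Acvr2b and Skil were at 10 or more in 2 of 3 each. Among the other N2B27 small cells, Acvr2b was at that level in 4 and below it in 13, and Skil in 9 and below it in 8. The 3 cells shared no member other than Lefty2 at 10 or more. Their primitive endoderm and 2-cell-like markers were at 0, and their summed mesendoderm markers were at most 0.896. Their summed formative epiblast markers ran from 8.07 to 457, beside a median of 91.0 in N2B27 small. Of the ES cell markers, Zfp42 ran from 1803 to 3544 in the 3 cells, Nanog from 1.79 to 1680 and Esrrb from 2.25 to 1123.

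Nodal was at 10 or more in 11 of the other 17 N2B27 small cells, so it was found without Lefty2 and not with it in this group. Over the 3 Lefty2-high cells its median was 0, against 178 in the other 17. The Lefty1-high cell had 274 Nodal, 3.76 Tdgf1, 0.751 Acvr2b, 0.751 Smad2, 33 Skil and neither Smad3 nor Smad7, and was called G1. In this cell Lefty1 and Nodal were therefore found together, with Lefty2 at 0.751.

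In 2i the combination differed. Of the 5 Lefty2-high cells of 2i ungated, 4 had Nodal at 116 to 418 and 1 had 1.62, and all 5 had Tdgf1, at 144 to 901. Among the other 17 cells of 2i ungated, Nodal was at 10 or more in 15 and Tdgf1 in all 17. The median of Nodal in these 5 cells was 221 against 237 in the other 17. Skil was at 10 or more in 4 of the 5 and Smad2 in 3 of 5, against 8 and 12 of the other 17. Smad3 and Smad7 were at 0 in all 5. In 2i small, the cell at 143 Lefty2 had 470 Nodal and 343 Tdgf1 and no Lefty1 read, and the cell at 383 Lefty1 had 462 Nodal and 341 Tdgf1 and no Lefty2 read. The only cell of the 75 with both Lefty genes at 10 or more was the 2i small cell with 15712 genes, at 15 Lefty1 and 10.4 Lefty2. Whether that well held more than 1 cell was not tested, and without it no kept cell had both.

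**Figure D3:**
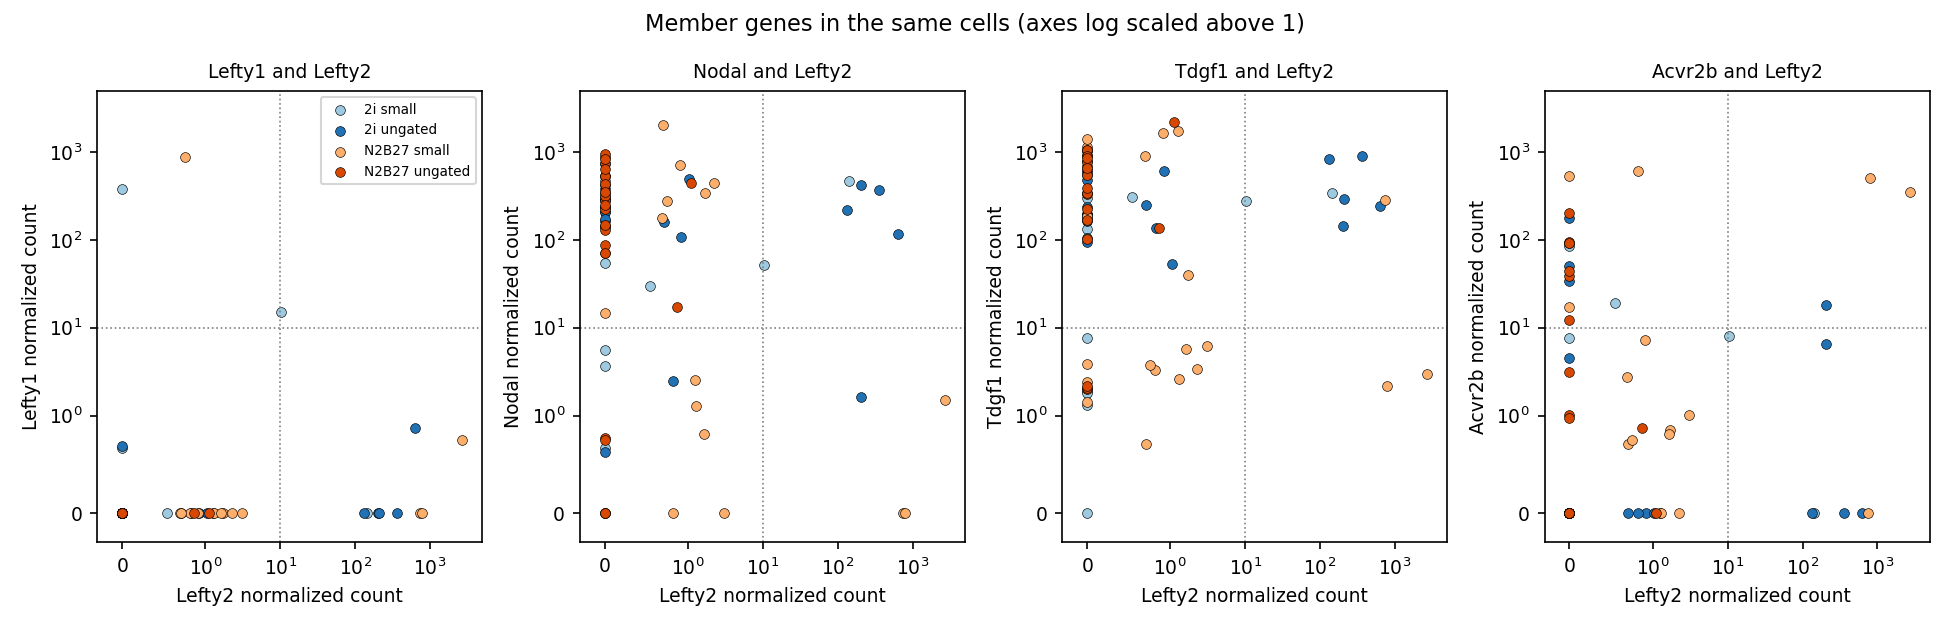
Normalized counts of Lefty1, Nodal, Tdgf1 and Acvr2b against Lefty2 in the same cell, for the 75 kept cells coloured by group, with both axes linear up to 1 and logarithmic above, and dotted lines at 10. The 3 N2B27 small cells at the right of each panel lie at the bottom for Lefty1 and Nodal and 2 of them near 348 and 501.6 for Acvr2b, while 4 of the 5 2i ungated cells with high Lefty2 lie between 116 and 418 for Nodal.

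Rank correlations over the 20 N2B27 small cells are given as descriptions, since the cells share a plate and index rows and most Lefty2 values are traces. Spearman's rho of Lefty2 was 0.22 with Lefty1 and -0.42 with Nodal. With values below 10 normalized counts set to 0 these were -0.10 and -0.42. The rho with Nodal was higher than that of 9.20% of 10176 genes and thus among the lower ones. Of the other members, rho was 0.50 with Smad3, 0.27 with Skil, 0.22 with Smad2, 0.05 with Acvr2b, -0.01 with Smad7 and -0.10 with Tdgf1, and with traces set to 0 it was 0.35 for Smad3, 0.10 for Skil and 0.36 for Acvr2b. Lefty2 also had a rho of 0.69 with the share of spike-in reads and of -0.49 with genes detected. Both include the traces and are not given with traces set to 0, and their part in the other correlations was not tested. The 3 Lefty2-high cells held 3.79, 2.72 and 2.60% spike-in reads, against a group median of 2.45%. In 2i ungated (22 cells), Lefty2 had a rho of -0.17 with Nodal and 0.19 with Tdgf1.

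The 5 genes most like Lefty2 in rank over the 20 N2B27 small cells, among 6154 genes with a read in at least 50% of them, were Uchl4 (rho 0.77), Uchl3 (0.75), Gm8420 (0.71), Zfp322a (0.70) and Gm10232 (0.69). With traces set to 0 their rho was 0.61, 0.56, 0.29, 0.81 and 0.31. Over both gates of N2B27 (41 cells, 6362 genes) they were Gm15500, Lsm3, Gm10232, Gm4342 and Gm2000, at 0.63 to 0.66, which fell to 0.22 to 0.34 with traces set to 0. The genes most like Nodal over the 41 cells were Cox11 (0.64), Trip6 (0.61), Rpusd3 (0.60), 1700007K13Rik (0.60) and Cdk11b (0.60), and none of these is a member. Lefty1 had a read in too few N2B27 cells for such a ranking.

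Nodal and Tdgf1, the ligand and its coreceptor, were the members with the highest level per length and were read in most cells. Per kilobase of exon, as a mean of the group means of normalized counts, the order was Tdgf1 (142), Nodal (121), Lefty2 (28.2), Lefty1 (11), Smad2 (10.01), Acvr2b (9.69), Skil (4.21), Smad3 (3.80) and Smad7 (1.13). The order changed with the group. In 2i small Nodal (80.0) was above Tdgf1 (73.1) and Lefty1 (18.9) above Lefty2 (4.92), and in N2B27 ungated Lefty2 was at 0.0362. Lefty1, Smad2 and Acvr2b are neighbours in this order that differ by less than the spread between cells, whose SD exceeds the mean for Lefty1 and Acvr2b in every group where they were read.

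Nodal (ENSMUSG00000037171, chr10:61417972-61425338, plus strand) ran from 0 to 2035 normalized counts in N2B27 small, with a median of 42.9, and from 0 to 939 in N2B27 ungated, with a median of 252. In 2i it ran from 0 to 728 in small cells, with a median of 40.6, and from 0.625 to 534 in ungated cells, with a median of 229. The means were closer than the medians, at 289 ± 488 (SD, 20 cells) in N2B27 small and 313 ± 285 (21 cells) in N2B27 ungated, a log2 ratio of -0.11 against a median of -0.12 over all 10318 genes past the minimum mean of 10. Ungated cells were more often at 10 or more. The share was 55.0% in N2B27 small against 85.7% in N2B27 ungated, a difference of -30.7 percentage points beside a median difference of -10 points over all genes, of which 12.1% had as low a difference or lower. In 2i the shares were 58.3% and 86.4%, a difference of -28.0 points beside a median of -18.2 over all genes, of which 32.2% were as low or lower. The N2B27 small cells below 10 had a higher median spike-in share (3.79%, 9 cells) than those at 10 or more (2.09%, 11 cells), and the part of this in the difference was not tested.

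Tdgf1 (ENSMUSG00000032494, chr9:110939603-110946158, minus strand) showed the same split more widely. In N2B27 small it ran from 0.706 to 1720 normalized counts, with a median of 4.75, and 8 of 20 cells were at 10 or more. In N2B27 ungated it ran from 2.00 to 2218, with a median of 553, and 18 of 21 were at 10 or more. The difference in share was -45.7 points, and 1.91% of genes had as low a difference or lower. In 2i, 7 of 12 small and 22 of 22 ungated cells were at 10 or more, a difference of -41.7 points, and 12.6% of genes were as low or lower. The log2 ratio of means of small to ungated was -0.69 in N2B27 and -0.81 in 2i, within 2-fold in both. As means of log2 values per cell these were -3.14 and -2.59, where the medians over all genes were -0.64 and -1.16. With size factors from the spike-ins the 2i ratio turned to 0.99, where the median over all genes was 0.77. The smallest of those size factors, 0.0413, scales up the 714 Tdgf1 reads of the 2i small cell with 15712 genes. The part of that cell in the turn was not tested. Part of the Tdgf1 transcript, 12.5% of its 50-base words, occurs in other genes, so its low reads are uncertain. The 2i small cells below 10 for Nodal or for Tdgf1 had a median spike-in share of 16.7%, against 2.30% in the others. Nodal and Tdgf1 did not sort the same N2B27 small cells, since 5 had both at 10 or more, 6 Nodal alone, 3 Tdgf1 alone and 6 neither.

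The 250 bases before the start were at hand from RefSeq (GRCm38.p6) for 4 of the 9 members, Nodal, Tdgf1, Acvr2b and Smad3, and were searched on both strands for AATNCACA (a Foxh1 motif), CAGAC (a SMAD motif), GTCTAGAC and GGCGCC. The CAGAC motif was found once in Tdgf1, from 113 to 109 bases before the start, and once in Acvr2b, and no other match was found in these 4 windows. CAGAC was in 42.2% of 32851 windows of this length, AATNCACA in 3.18%, GGCGCC in 9.59% and GTCTAGAC, which contains no CAGAC, in 0.167%. The windows of the ligand and the coreceptor are printed, as the members at 10 or more in most cells, 5′ to 3′ on the strand of the gene, with a match in capitals (chr10:61417722-61417971, plus strand, for Nodal and chr9:110946159-110946408, minus strand, for Tdgf1).
Nodal: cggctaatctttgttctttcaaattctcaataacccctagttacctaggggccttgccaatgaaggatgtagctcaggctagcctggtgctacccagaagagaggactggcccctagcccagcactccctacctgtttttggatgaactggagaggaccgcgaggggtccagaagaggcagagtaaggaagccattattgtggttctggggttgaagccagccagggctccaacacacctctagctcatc
Tdgf1: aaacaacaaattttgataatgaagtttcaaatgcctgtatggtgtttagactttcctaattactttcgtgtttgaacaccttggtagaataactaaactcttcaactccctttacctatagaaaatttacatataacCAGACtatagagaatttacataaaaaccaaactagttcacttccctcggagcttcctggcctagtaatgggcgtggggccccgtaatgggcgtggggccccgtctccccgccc

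Acvr2b, a type II activin receptor that Nodal uses (chr9:119402118-119434995, plus strand), had a higher mean in N2B27 small than in any other group. It was at 607, 537, 501.6 and 348 normalized counts in 4 N2B27 small cells, with 2 more at 10 or more, and at most 202 in N2B27 ungated, 177 in 2i ungated and 85.1 in 2i small. The median was below 1 in all 4 groups. The share of cells at 10 or more was 30% in N2B27 small and 28.6% in N2B27 ungated. The log2 ratio of 2.14 (2.01 to 2.28) thus lay in the height of the positive cells. It was 2.39 without the highest cells and 0.87, within 2-fold, with means of log2 values per cell, where the median over all genes was -0.64. Against 2i small, the N2B27 small log2 ratio was 3.28 (3.03 to 3.56), and 3.23 without the 2 cells of 2i small that stand apart. Among cells called S, 4 of 11 N2B27 small and 1 of 4 N2B27 ungated cells were at 10 or more.

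Smad2 and Smad3, which carry the signal to the nucleus, differed from each other. Smad2 (chromosome 18, 76241580 to 76310963, plus strand) was at 10 or more in 15 of 22 2i ungated, 5 of 12 2i small, 7 of 21 N2B27 ungated and 3 of 20 N2B27 small cells. Its log2 ratio of small to ungated was 0.03 in N2B27 and -0.20 in 2i, and that of N2B27 to 2i was -0.73 in small and -0.96 in ungated cells, which is within 2-fold in all 4. Without the highest cells the ratios of N2B27 to 2i were -1.54 and -1.20, past 2-fold, and as means of log2 values per cell -2.26 and -2.72. For such means of log2 values the medians over all genes were -0.16 and -0.57. In N2B27 small, 1 cell at 821 held 65.1% of the reads, and the median was 0.

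Smad3 (chr9:63646767-63757994, minus strand) was at 0 in the median cell of every group. In N2B27 small 1 cell was at 1108 normalized counts and the next at 36.7, and that 1 cell held 94.8% of the Smad3 reads. In N2B27 ungated the highest were 31.9 and 15.4. Its log2 ratio of 3.91 (3.58 to 4.29) became 0.38 without the highest cell of each group. The share at 10 or more was 10% in N2B27 small and 9.52% in N2B27 ungated. In 2i the highest cells were at 137 in small and 184, 46.8 and 33.4 in ungated, a log2 ratio of -0.03 that was -1.80 without the highest cells.

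Phase differed between the gates, so the shares are also given within a phase. Among cells called S in N2B27, Lefty2 was at 10 or more in 2 of 11 small and 0 of 4 ungated cells and Tdgf1 in 4 of 11 and 4 of 4. Nodal was there in 7 of 11 and 3 of 4, and Skil in 7 of 11 and 0 of 4. Among cells called G2M, Tdgf1 was at 10 or more in 3 of 3 small and 12 of 15 ungated cells. With so few cells of 1 phase, the order of the gates within a phase is a description of these cells.

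Of the inhibitors inside the cell, Skil was at 10 or more in more N2B27 small than N2B27 ungated cells, and Smad7 was hardly read. Skil (chr3:31095058-31122577, plus strand), a SnoN corepressor that binds Smad proteins, ran from 0 to 423 normalized counts in N2B27 small, with a median of 19, and from 0 to 119 in N2B27 ungated, with a median of 0. In 2i it ran from 0 to 70.8 in small cells, with a median of 34.4, and from 0 to 139 in ungated cells, with a median of 15.9. The share at 10 or more was 55.0% in N2B27 small against 28.6% in N2B27 ungated, a difference of 26.4 points. This was at or above the difference of 99.6% of genes. In 2i the difference was 12.1 points, at or above that of 97.0% of genes. For Skil the log2 ratio of small to ungated was 2.21 (2.05 to 2.38) in N2B27, 2.35 without the highest cells and 0.82 with size factors from the spike-ins, and -0.05 (-0.20 to 0.11) in 2i. With the spike-in size factors the median over all genes in the N2B27 contrast was -0.81. In N2B27 small, 8 of the 11 cells with Nodal at 10 or more also had Skil there, against 3 of the other 9. Spearman's rho of Nodal with Skil over these 20 cells was 0.17, higher than that of 63.0% of genes. In N2B27 ungated it was -0.26.

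Smad7 (chromosome 18, 75367529 to 75395935, plus strand), which blocks the receptors, had a mean over groups of 5.11 and did not pass the minimum mean. It was at 10 or more in 1 of 12 2i small, 2 of 22 2i ungated, 1 of 20 N2B27 small and 2 of 21 N2B27 ungated cells, and its highest values were 17.3, 60.01, 134 and 149. The log2 ratio of small to ungated in N2B27 was -0.12.

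Counted together, 8 of the 9 members passed the minimum, and a member is counted as higher or lower past 2-fold. In N2B27 small against N2B27 ungated 5 of 8 were higher, beside 14.4% of all 10318 genes, and 0 were lower, beside 19.1%. Since Lefty2 was chosen on this contrast, nothing is read from the count. Of the 5 (Lefty1, Lefty2, Smad3, Skil and Acvr2b), 3 stayed past 2-fold without the highest cells, the exceptions being Lefty1 and Smad3. The median over the 8 was 2.18, and it is the same with Lefty1 at its bound. In 2i small against 2i ungated 1 was higher (Lefty1), beside 16.5% of genes, and 1 lower (Lefty2), beside 30.6%, with a median of -0.29 against -0.40 over all genes. Lefty1 passed the minimum mean through the small groups, at 33.2 in 2i and 43.7 in N2B27 against 0.0709 and 0 in the ungated groups. Nothing is therefore read from this count.

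Across media, 4 of 8 members were higher in N2B27 small than in 2i small (Lefty2, Acvr2b, Smad3 and Skil), beside 25.5% of genes, and 0 were lower, beside 20.1%. Nothing is read from this count either, since it holds the values Lefty2 was chosen on, and Smad3 passed the minimum mean through N2B27 small, at 57.5 against 2.88 to 12.03 in the other groups. In ungated cells 0 were higher in N2B27 than in 2i, beside 9.46% of genes, and 3 were lower (Lefty2, Smad3 and Skil), beside 12.5%. Without the highest cells Skil was at 0.96 in small cells and Smad3 at -0.99 in ungated cells, so that 3 of the 4 and 2 of the 3 stayed past 2-fold. With all cells, Lefty2, Smad3 and Skil had opposite directions in the gates, which for Lefty2 restates how it was chosen. For Lefty2 the log2 ratio of N2B27 to 2i was 3.94 (3.76 to 4.13) in small and -6.02 (-9.39 to -4.49) in ungated cells. For Smad3 it was 2.19 (1.93 to 2.48) and -1.75 (-2.15 to -1.37), and for Skil 1.19 (1.06 to 1.33) and -1.07 (-1.24 to -0.89). The comparisons share groups, and with 1 sample in each the difference between gates was not tested. With size factors from the spike-ins the small cells' log2 ratio was -0.88 for Smad3 and -1.20 for Skil, so their direction turned, while that of Lefty2 was 1.45. Those size factors moved the median of all genes in this contrast from 0.11 to -1.56. The smallest of them, 0.0413, is that of the 2i small cell with 15712 genes, whose reads they scale up most. The part of that cell in the turned directions was not tested.

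**Figure D4:**
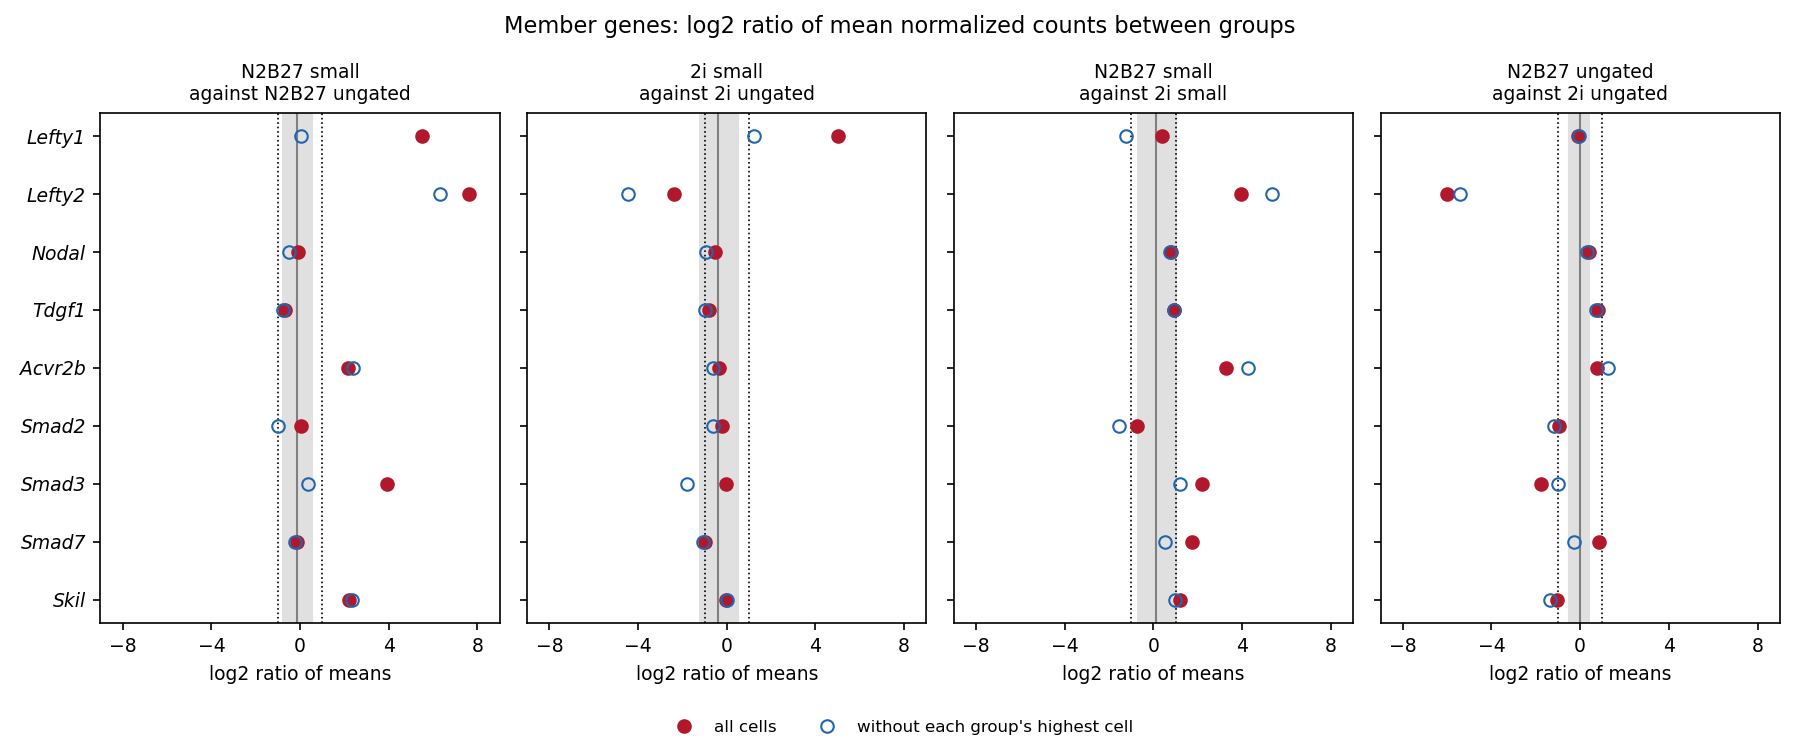
The log2 ratio of mean normalized counts (pseudocount 1) of each member in the 4 comparisons, with all kept cells (filled) and without the highest cell of each group (open). The grey band is the range from the first to the third quartile over 10318 genes, the grey line their median and dotted lines mark 2-fold; in N2B27 small against N2B27 ungated, Smad3 moves from 3.91 to 0.38 and Lefty1 from 5.48 to 0.06 when the highest cells are left out.

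**Figure D5:**
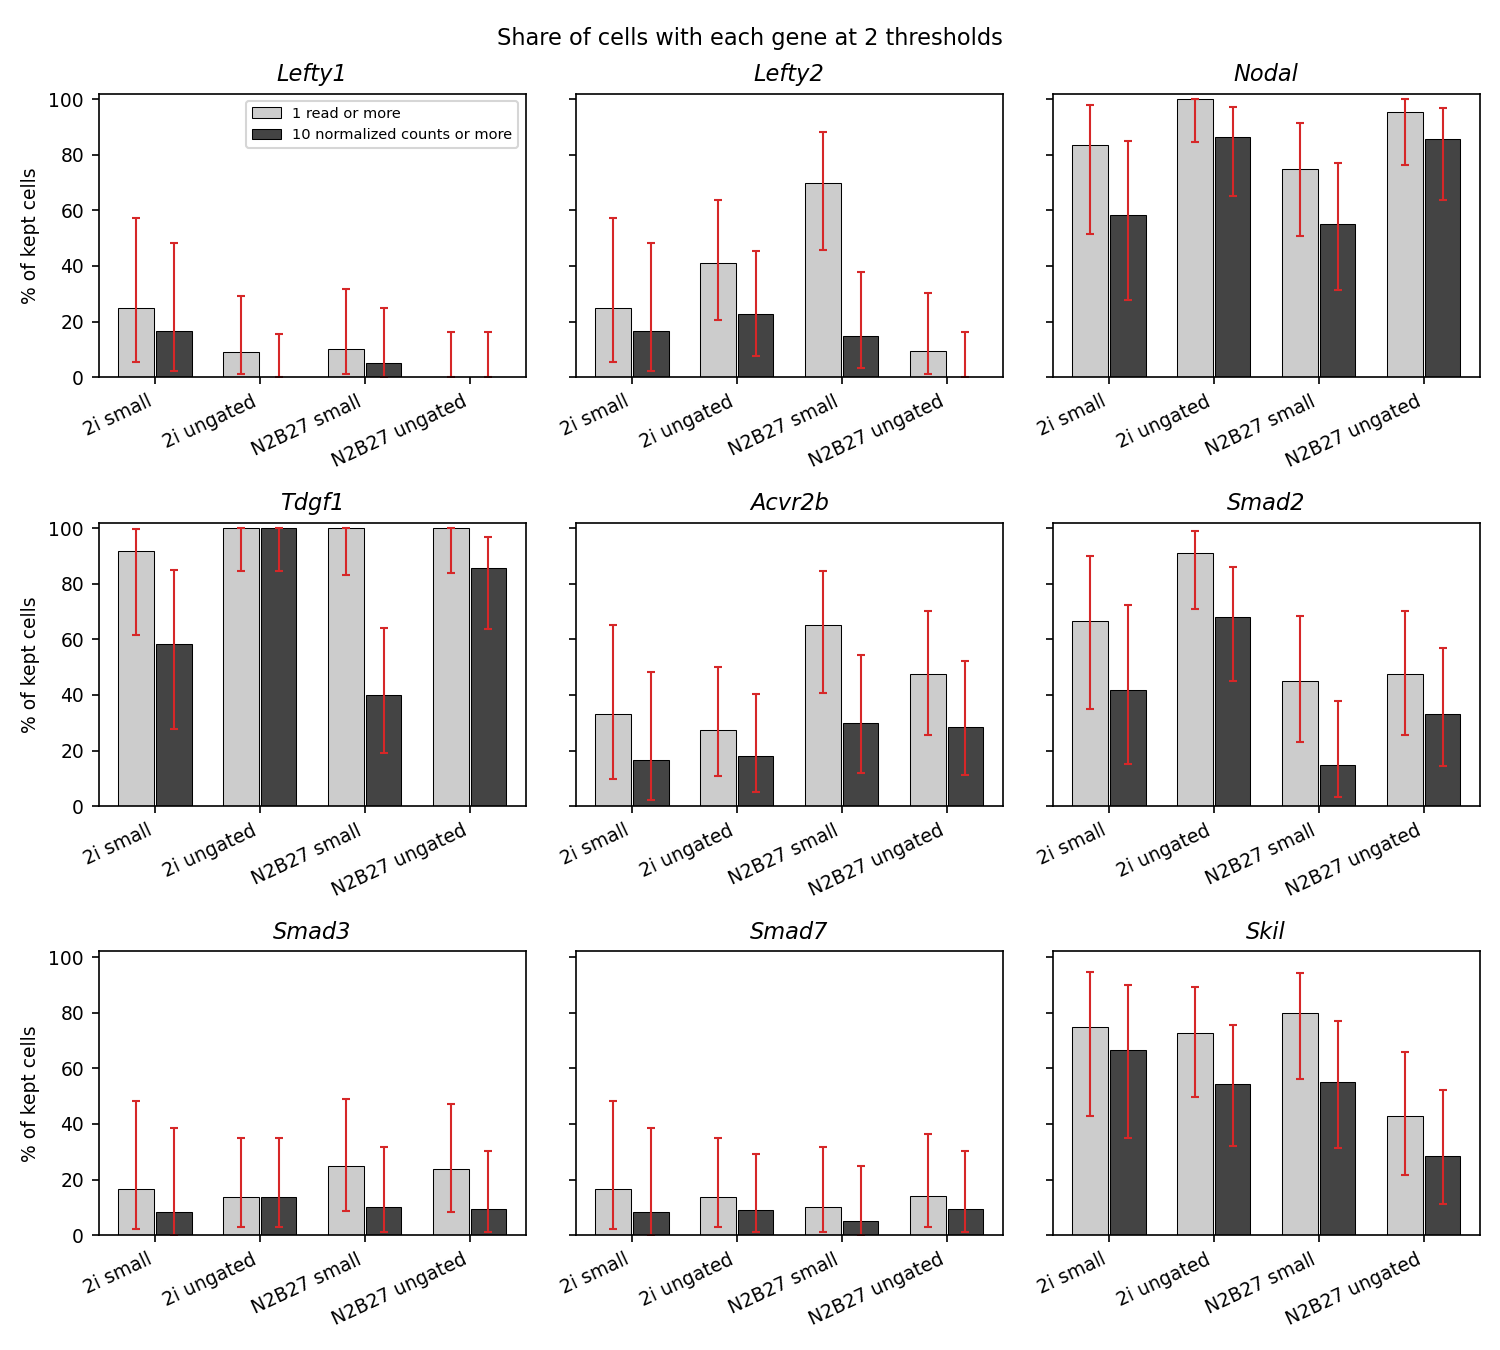
Percent of kept cells in each group with 1 read or more (grey) and with 10 normalized counts or more (black) of each member, with exact 95% intervals (red) that cover counting error only. For Lefty2 in N2B27 small the share is 70% at the lower threshold and 15% at the higher, and for Tdgf1 100% and 40%.

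A list of 41 other genes of the pathway (ligands, receptors, antagonists, Smad partners, inhibitors and targets) was also read, of which 40 were matched and 17 passed the minimum. In N2B27 small against ungated, 5 of the 17 were higher, beside 14.4% of all genes, 3 lower, beside 19.1%, and 9 within 2-fold, with a median of -0.42 against -0.12 over all genes. The receptors Tgfbr3 (1.85), Acvr2a (1.55) and Acvr1b (1.09), the Smad4 regulator Trim33 (3.37) and the corepressor Ski (4.09), a relative of Skil, were higher. Without the highest cells Ski and Trim33 were still at 2.38 and 3.73, while Acvr1b was at -1.08 and Tgfbr3, read in 0 cells of N2B27 ungated, at 0. The convertase Pcsk6 (-3.72), Ldlrad4 (-2.06) and Id1 (-3.44), a target of BMP signalling, were lower. Ski passed the minimum mean through N2B27 small, at 63.6 against 2.80 to 14.8 in the other groups. Acvr1b did so too, at 20.4 against 2.68 to 16.0. Id1 passed it through N2B27 ungated, at 141 against 0.768 to 12.1. Nothing is therefore read from the counts of this list. Pcsk6 and Ldlrad4 were at 0 in N2B27 small, so their ratios depend on the pseudocount, and without the highest cells they were at -0.28 and 0 and Id1 at -3.85. Foxh1, the partner of Smad2 in the nucleus, was at 10 or more in 13 of 20 N2B27 small and 18 of 21 N2B27 ungated cells, with a log2 ratio of -0.42, and the ligand Gdf3 was at -0.91. In 2i small against ungated 2 were higher, beside 16.5% of genes, 8 lower, beside 30.6%, and 7 within, with a median of -0.72 against -0.40 over all genes. N2B27 small against 2i small gave 10 higher, beside 25.5%, 5 lower, beside 20.1%, and 2 within. The ungated groups gave 1 higher, beside 9.46%, 6 lower, beside 12.5%, and 10 within. Many of these genes were read in few cells. Gsc, a mesendoderm target, was at 10 or more in 1 cell each of 2i small and 2i ungated.

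Of the genes within 100 kb of the Lefty pair that passed the minimum, 4 are given here, and none of these 4 had a ratio of the size of Lefty2. Their log2 ratios in N2B27 small against ungated were 0.25 for H3f3a, -0.53 for Sde2, 0.20 for Ephx1 and 1.21 for Gm20305, which lies within Sde2.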

How the data were processed

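The authors trimmed reads with Trim Galore 0.4.4, aligned them to GRCm38/mm10 with GSNAP and counted them on Ensembl genes with HTSeq, per the labels and the study's methods, and deposited raw counts per gene with 1 column per cell and 1 table per medium. Smart-seq2 adds no molecular identifiers, so a count is a read and intervals cover counting error only. The kit does not mark strand, so reads of a gene and of an antisense partner cannot be told apart. Columns were matched to samples through the deposited list of runs, and 23.8% of counts lay on rows that name no gene and stayed out. Positions come from GENCODE M21, of the same build.

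Cells more than 3 median absolute deviations below their plate's median in reads or genes detected, or above it in mitochondrial share, were left out with scater 1.30.1, and no doublet caller was run on these singly sorted cells. Counts were divided by DESeq2 1.42.0 size factors over the kept cells, and phases were called with scran 1.30.0. Ratios are log2 of group means of normalized counts with a pseudocount of 1. Genes needed a mean of group means of at least 10. Counting intervals are at 95%, and for shares they are exact (Clopper-Pearson). For ratios the exact binomial interval of the reads was moved to lie around the reported ratio. These intervals are therefore approximate, most so where a group has few reads, as for Lefty1 and Lefty2. Each group is 1 sample, so the adjusted p of DESeq2 that the methods name was not repeated. The ratio step was tested on simulated counts, in which all genes varied between cells by the same rule and only medians over many genes were checked. That test says nothing of the ratio of a single gene read in few cells, as for Lefty1. Python 3.11.15, numpy 2.4.6, scipy 1.17.1 and pandas 2.3.3 ran the rest.

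The genes named are the 9 members, the listed pathway genes past 2-fold in N2B27 and a few of known role (Foxh1, Gdf3 and Gsc, picked after values were seen), genes within 100 kb of the Lefty pair (1 result there and 1 sequence are not reported here), and the 5 genes of highest Spearman rho with Lefty2 among genes with a read in at least 50% of cells. The ranking for Nodal was added after values were seen. Members and lists were chosen with earlier results of these data known. Alternatives covered the filter on cells, the size factors, the summary over cells, the pseudocount, the depth, the phase and the threshold per cell. Setting values below 10 to 0 was added after seeing the data.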

Additional observations from a re-analysis of the deposited data

Results flagged for a closer look

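The change from 2i to N2B27 went in opposite directions in the gates for 3 members, which was not tested, since each group is 1 sample. For Lefty2 it restates how the genes were chosen. The log2 ratio of N2B27 to 2i was 3.94 in small cells and -6.02 in ungated cells for Lefty2. It was 2.19 and -1.75 for Smad3, where 1 N2B27 small cell held 94.8% of the reads. It was 1.19 and -1.07 for Skil. With spike-in size factors Smad3 and Skil were lower in N2B27 in small cells too, at -0.88 and -1.20, where the median over all genes was -1.56. Those size factors scale up most the reads of the 2i small cell with 15712 genes. In S cells only, Smad3 was at -2.71 in small cells. Without each group's highest cell, Skil in small cells was at 0.96 and Smad3 in ungated cells at -0.99, both within 2-fold.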

How the results depend on the processing

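Of 127 recomputed values of the main results, 107 stayed within the counting interval (counts: within 1.5 times) and no main result that was past 2-fold changed sign. For rank correlations the interval was an approximate one that takes the cells of N2B27 small as independent, which they are not. Some intervals were wide, as for Lefty1 in N2B27 small against ungated, at 2.60 to 24.2. Staying within such an interval says little of stability. Of the 15 member ratios past 2-fold, 204 of 210 alternative values kept the direction and 184 kept both direction and 2-fold. Of these ratios, 5 stayed past 2-fold in every alternative. Lefty1 in 2i small against ungated is 1 of the 5, but no alternative left out both 2i small cells where it was at 10 or more. For the 33 member ratios outside the main results, 238 of 462 alternative values stayed within the counting interval. Of the rest, 218 moved out of it and 6, of ratios past 2-fold, changed sign. With means of log2 values per cell, N2B27 small against ungated was 2.09 for Lefty2, 0.53 for Lefty1 and -2.15 for Nodal, 5 members were past 2-fold in 2i small against ungated, and Skil in N2B27 small against 2i small was -0.15. The medians over all genes in these contrasts were then -0.64, -1.16 and -0.16. Without each group's highest cell, Lefty1 was 0.056, Nodal -0.51 and 3 members were past 2-fold in N2B27. With the pseudocount at 5, Lefty2 was 5.41. In S cells only, Lefty1 was 0.10, Nodal 1.07, 6 and 5 members were past 2-fold in 2i small against ungated and in N2B27 ungated against 2i ungated, and Smad3 in N2B27 small against 2i small was -2.71. With spike-in size factors, Nodal was -0.86, where the median over all genes was -0.81. In 2i small against ungated 1 member was then past 2-fold, where the median over all genes was 0.77. Smad3, Smad7 and Skil in N2B27 small against 2i small were then -0.88, -2.81 and -1.20, where the median over all genes was -1.56. In the 2i small means those size factors scale up most the reads of the cell with 15712 genes. Nodal was 0.18 with poscounts and 0.054 with pooled counts, where the medians over all genes were 0.29 and -0.015. Smad7 in N2B27 small against 2i small was -1.25 with no filter on cells. Cells with Lefty2 made up 45% of N2B27 small and 0% of N2B27 ungated when thinned to 1364155 reads per cell, and 15% and 0% counted from 10 normalized counts, against 70% and 9.52%. The cause was not tested, save that fewer cells or reads enter where cells or reads are left out. No paired analysis was possible because each group is 1 sample, and for the same reason no sample could be left out. Depth limits shares near 0.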

Other observations

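Wells left out by the filter on cells held reads of some members. In the 4 left-out N2B27 small wells, Tdgf1 was read in 3, with 1297 reads at most, and Skil in 4, with 445 at most, while Lefty1 was read in 0 and Lefty2 in 2, with 2 reads at most. In the 12 left-out 2i small wells, Tdgf1 was read in 9, with 843 reads at most, Lefty2 in 2 and Lefty1 in 1, with 1 read at most each. In the 2 left-out 2i ungated wells, Smad7 was read in 1, with 62 reads.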
